A study of Mus musculus with 33 samples.

Results

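To ask what the loss of HP1α changes in embryonic stem cells (ESCs) that already lack HP1β, the 3 HP1β/αDKO libraries were compared with the 3 HP1βKO libraries. These 6 libraries, of 33 in the series, were taken by genotype label, and no *wild-type* library entered the comparison. Both groups are C57BL/6 mouse ESCs without HP1β, grown in serum and leukemia inhibitory factor on mouse embryonic fibroblast feeders that were depleted by plating on gelatin before RNA was taken, and the double knockout lacks HP1α as well. The lines were made with CRISPR/Cas9, and the sources used here give neither the number of clones per genotype nor whether the double knockout was derived from the HP1βKO line, so a difference between clones and the effect of the genotype cannot be told apart. The 3 libraries of a group are called biological replicates, of a kind that is not stated, and p-values measure only the spread between these libraries. In bulk RNA, fewer cells of a type and less RNA per cell cannot be told apart either. Beside these 6 libraries, HP1αKO and *wild-type* (WT) libraries were used for comparison with cells that have HP1β, 15 libraries in all. The WT libraries carry the same genotype label and were split by title alone, NK for set A and WT for set B. How these sets differ is not stated in the labels.

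Total estimated counts ranged from 20233367 to 22828538 in the HP1βKO libraries and from 19714459 to 24423041 in the HP1β/αDKO libraries. Replicate 1 of the HP1βKO group stood somewhat apart: chi-square per degree of freedom was 9.84 and 11.3 against replicates 2 and 3, which differed from each other by 2.91. Pairs of HP1β/αDKO libraries gave 4 to 5.12, pairs of WT (set A) libraries 2.77 to 3.08 and pairs of HP1αKO libraries 2.86 to 3.19. All 12 ESC markers were measured, and their summed level was 4494 to 4645 CPM (counts scaled to a common library total by TMM) in HP1βKO and 4759 to 4867 CPM in HP1β/αDKO. Markers of feeder fibroblasts summed to 101.9 to 111.3 CPM in HP1βKO and 123.7 to 137.2 CPM in HP1β/αDKO. Of these markers *Postn*, *Lum*, *Prrx1*, *Cdh11*, *S100a4* and *Fap* were too low to be tested. Among the 14 tested, 2 were called higher (14.3%, beside 4.1% of all genes by the rule given below). Endoderm-like markers, 4 of 8 tested, summed to 9.39 to 11.4 CPM in HP1βKO against 5.81 to 8.31 CPM in HP1β/αDKO. Trophoblast-like markers summed to 18.8 to 23.5 CPM against 15.8 to 16.2 CPM, and neural-like markers to 273.8 to 282.6 CPM against 202.7 to 218.6 CPM. Too low to be tested, and so outside these sums, were the endoderm-like *Gata6*, *Sox17*, *Foxa2* and *Cubn*, the trophoblast-like *Elf5* and *Tpbpa* and the neural-like *Neurog2*. The part of these cell types in the results was not tested.

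HP1 proteins read methylated lysine 9 of histone H3 through a chromodomain and recruit partners through a chromoshadow domain, which also lets them pair with one another. Mammals have HP1α, HP1β and HP1γ, encoded by *Cbx5*, *Cbx1* and *Cbx3*. They are best known for compacting pericentromeric heterochromatin and silencing repeats, and they also occur at active genes. Because the paralogs share partners and targets, removing one where another is missing asks what each still does alone.

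Each gene was cut with a pair of guides. They are shown because they define both genotypes, in lower case and 5′ to 3′, as the study designed them.
*Cbx5* upstream guide: ctcgccagttctgccgagat
*Cbx5* downstream guide: ggctgagtgagaactagtag
*Cbx1* upstream guide: tactaggaaagtctagcgat
*Cbx1* downstream guide: tcttgcatagaagcctaggc
The upstream *Cbx1* guide matched 1 of 5 GENCODE transcripts of the gene, the retained-intron transcript *Cbx1*-205, at chr11:96801311-96801330 on the plus strand of GRCm38, where tgg follows it. All 3 protein-coding *Cbx1* transcripts span this position and 0 of them have an exon there, so it is intronic for the protein-coding gene. The other guides matched no annotated transcript of their gene, 4 transcripts being searched for *Cbx5*, and were not placed.

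The targeted gene behaved as labelled. *Cbx5* (chr15:103191544-103239816, minus strand) was at 412, 453 and 446 CPM in HP1βKO and 196, 196 and 204 CPM in HP1β/αDKO. The groups were far apart, a log2 fold change of -1.14 (SE 0.0477, adjusted p = 2.43e-08), yet 45.5% of the *Cbx5* signal remained. Estimated counts are given per gene, and how much of this signal lies outside the cut part was not tested. *Cbx1* was at 96.5, 96.4 and 108 CPM in HP1βKO and 94.8, 96.2 and 93.1 CPM in HP1β/αDKO, with a log2 fold change of -0.082 (adjusted p = 0.257). Both groups carry the *Cbx1* knockout, and the gap between their nearest libraries was smaller than the range within HP1βKO. *Cbx3*, the remaining paralog, was at 190.1, 204 and 208 CPM in HP1βKO and 198, 183 and 164 CPM in HP1β/αDKO, and its log2 fold change of -0.14 did not pass the test (adjusted p = 0.104). Its libraries overlapped. In *wild-type* cells the loss of HP1α moved *Cbx5* by -1.45 on the log2 scale, and the difference of 0.3 between the 2 backgrounds (adjusted p = 0.000146) was under the fold threshold given below.

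**Figure D1:**
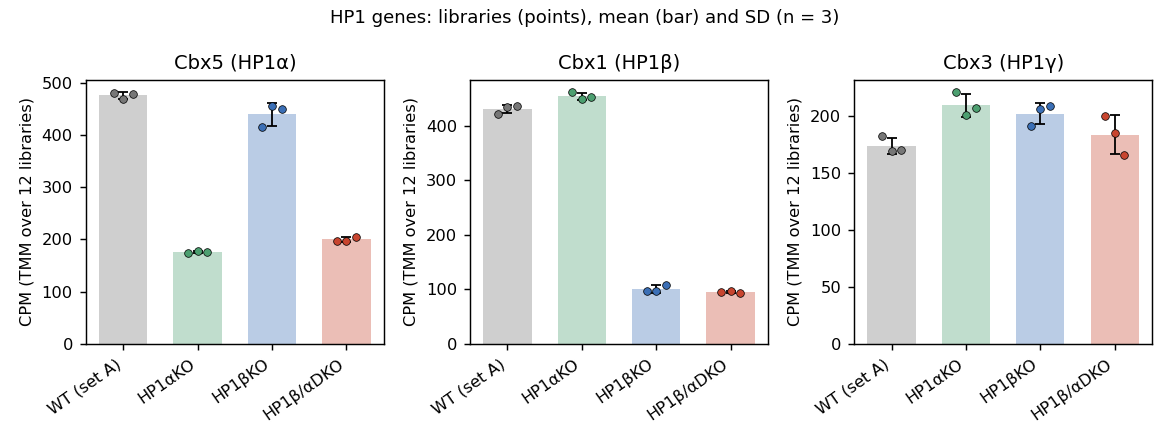
CPM (TMM over 12 libraries) of *Cbx5*, *Cbx1* and *Cbx3* in WT (set A), HP1αKO, HP1βKO and HP1β/αDKO; points are libraries, bars means and error bars SD (n = 3). *Cbx5* averaged 439.7 CPM in HP1βKO and 200.3 CPM in HP1β/αDKO, while *Cbx1* averaged 101 and 95.5 CPM and *Cbx3* between 174 and 209 CPM in all 4 groups.

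Of 15694 genes tested with edgeR, 643 were called higher in HP1β/αDKO (4.1% of those tested) and 415 lower (2.64%), where a called gene had to pass an adjusted p of 0.05 and to differ by more than 1 on the log2 scale. Higher genes made up 60.8% of the 1058 calls. Many more genes moved by less: 6969 (44.4%) passed the adjusted p alone, 3658 of them higher and 3311 lower, while the median absolute log2 fold change of all genes tested was 0.28 and their median log2 fold change 0.0135. The common biological coefficient of variation was 0.0727, with HP1βKO replicate 1 somewhat apart as given above. The 2 groups did not overlap at 8534 tested genes (54.4%) and at 1041 of the 1058 called. Absence of overlap at a called gene below is to be read beside that share. Changes were mostly of low genes, since 639 called genes were under 5 CPM in both groups. Fold changes over 4 were seen for 85 higher and 58 lower genes. In what follows, a number in brackets after a gene is its log2 fold change of HP1β/αDKO over HP1βKO unless another comparison is named. Counts of called list members are to be read beside the 4.1% higher and 2.64% lower of all genes.

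**Figure D2:**
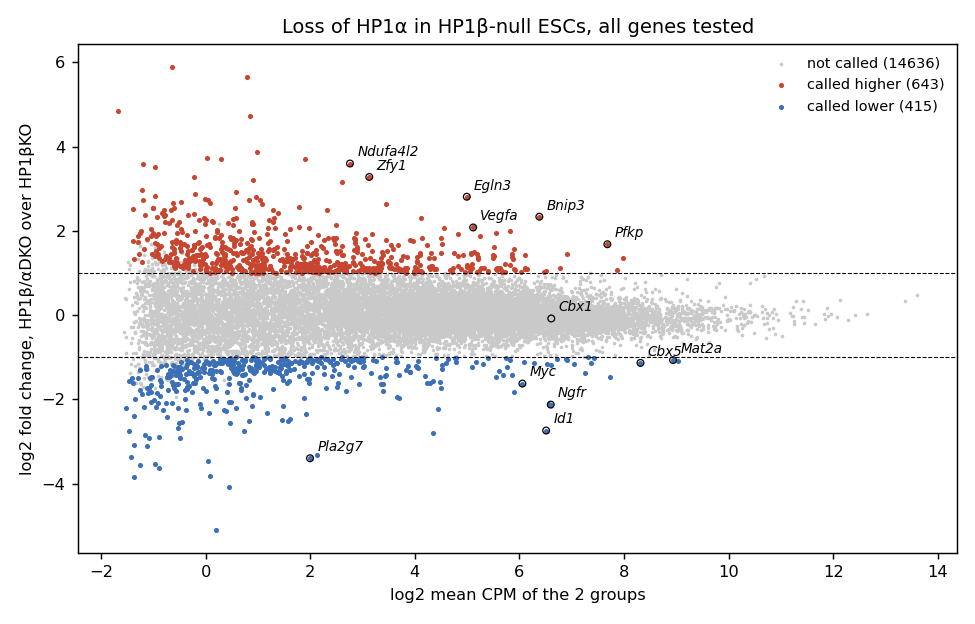
Log2 fold change of HP1β/αDKO over HP1βKO against log2 mean CPM of both groups, 1 point per gene tested; red points are the 643 genes called higher, blue points the 415 called lower, and dashed lines the fold threshold. *Bnip3*, *Egln3* and *Pfkp* stand out among the well expressed genes that rose and *Id1*, *Ngfr* and *Myc* among those that fell, while *Cbx1* lies near 0.

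Genes of the hypoxia and glycolysis list were called only upward, 8 higher and 0 lower by edgeR; at an unadjusted p under 0.05 0 were lower, and DESeq2 called 0 lower. In normal oxygen, prolyl hydroxylases mark the HIF transcription factors for destruction, and in low oxygen HIF binds a short ACGTG core at its targets, among them the hydroxylases themselves, glucose transporters, glycolytic enzymes and genes of mitochondrial turnover. Of 28 listed genes 27 were tested, and 8 (29.6%) were called higher, beside 4.1% of all genes. By the adjusted p alone 21 were higher and 0 lower, beside 3658 and 3311 of all 15694 genes. The median log2 fold change was 0.68 beside 0.0135 for all genes. The promoters of 4 called members follow, because they hold the core. Each runs from 250 bases before to 50 bases after the start site in RefSeq (GRCm38.p6), with ACGTG on either strand in capitals, so that CACGT is the same core read on the other strand.
*Egln3*, chr12:54203825-54204124, minus strand: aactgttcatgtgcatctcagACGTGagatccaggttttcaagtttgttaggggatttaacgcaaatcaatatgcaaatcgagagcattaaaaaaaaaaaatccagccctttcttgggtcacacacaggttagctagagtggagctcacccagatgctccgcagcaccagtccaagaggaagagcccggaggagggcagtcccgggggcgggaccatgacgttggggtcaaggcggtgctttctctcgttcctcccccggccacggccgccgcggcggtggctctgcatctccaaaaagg
*Bnip3*, chr7:138909457-138909756, minus strand: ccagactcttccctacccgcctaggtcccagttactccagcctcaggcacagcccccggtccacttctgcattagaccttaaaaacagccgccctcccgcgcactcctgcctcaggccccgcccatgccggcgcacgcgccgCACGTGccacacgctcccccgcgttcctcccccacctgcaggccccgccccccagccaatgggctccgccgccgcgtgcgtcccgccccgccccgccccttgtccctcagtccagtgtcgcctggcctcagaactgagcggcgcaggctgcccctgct
*Egln1*, chr8:124949205-124949504, minus strand: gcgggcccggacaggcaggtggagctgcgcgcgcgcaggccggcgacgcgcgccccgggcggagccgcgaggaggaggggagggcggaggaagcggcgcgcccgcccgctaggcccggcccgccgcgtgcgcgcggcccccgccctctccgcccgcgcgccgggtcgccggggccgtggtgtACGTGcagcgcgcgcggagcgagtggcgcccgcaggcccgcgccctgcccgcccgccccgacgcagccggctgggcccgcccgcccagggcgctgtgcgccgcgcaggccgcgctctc
*P4ha1*, chr10:59323046-59323345, plus strand: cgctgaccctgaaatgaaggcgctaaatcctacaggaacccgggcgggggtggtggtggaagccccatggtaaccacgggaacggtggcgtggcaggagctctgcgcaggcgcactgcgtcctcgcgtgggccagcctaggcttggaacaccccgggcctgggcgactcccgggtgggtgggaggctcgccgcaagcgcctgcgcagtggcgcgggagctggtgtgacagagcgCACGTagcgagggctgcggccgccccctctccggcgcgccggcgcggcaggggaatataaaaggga
*Bnip3* holds the palindrome, which counts on both strands. In these 300-base windows ACGTG occurred in 15 of 23 list members with a promoter (65.2%) and 5 of 7 called ones (71.4%), beside 25.4% of 11433 promoters of tested genes, 21.8% of 449 promoters of genes called higher and 23.5% of 260 of genes called lower. The windows of *Vegfa* and *Hk1* hold none. A match of letters is a description and not a bound site.

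*Egln3*, a HIF prolyl hydroxylase, was at 8.35, 7.14 and 8.41 CPM in HP1βKO and 55.4, 56.7 and 55.1 CPM in HP1β/αDKO. The groups were several-fold apart with little spread within either, a log2 fold change of 2.81 (SE 0.0785, adjusted p = 1.95e-09). *Egln1*, the main hydroxylase in most cells, was at 14.8, 13.1 and 14.8 CPM in HP1βKO and 39.8, 40.4 and 38.2 CPM in HP1β/αDKO, again without overlap, and had a log2 fold change of 1.48 (adjusted p = 9.07e-08). *Bnip3*, a receptor for the removal of mitochondria, was at 29.5, 25.9 and 27.4 CPM in HP1βKO and 144, 139 and 134 CPM in HP1β/αDKO and had a log2 fold change of 2.33 (SE 0.0616, adjusted p = 1.52e-09). For *Vegfa*, the angiogenic growth factor, the values were 10.5, 13.5 and 15.7 CPM in HP1βKO and 54.97, 54.6 and 58.6 CPM in HP1β/αDKO, a log2 fold change of 2.08 (SE 0.1095, adjusted p = 1.13e-07). The lowest double knockout library was above the highest HP1βKO library for each of these 4 genes. Of all 1058 called genes, 1041 did not overlap. *Ndufa4l2*, a mitochondrial protein made in low oxygen, was low throughout, at 1.44, 1.06 and 0.611 CPM in HP1βKO and 9.88, 14.1 and 13.6 CPM in HP1β/αDKO, and had the largest log2 fold change of the list, 3.6 (SE 0.244, adjusted p = 7.11e-07).

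The other called members were *Ankrd37* (1.45), *P4ha1* (1.43), which encodes a subunit of the collagen prolyl hydroxylase, and *Hk1* (1.03), a hexokinase. *Hk1* was at 37.7, 33.6 and 33.2 CPM in HP1βKO and 72.2, 69.6 and 71.9 CPM in HP1β/αDKO and only just passed the fold threshold, with 0.99 without HP1βKO replicate 2 and 0.98 without HP1βKO replicate 3. Below that threshold, but with an adjusted p under 0.05, stood the glucose transporter *Slc2a3* at 1088, 1017 and 1015 CPM in HP1βKO and 1884, 1856 and 1914 CPM in HP1β/αDKO (log2 fold change 0.86, adjusted p = 3.54e-08), *Pdk1* (0.9), which keeps pyruvate out of mitochondria, and the glycolytic enzymes *Aldoa* (0.75) and *Eno1* (0.33). These log2 fold changes were smaller than those of the called members. Outside the list, *Pfkp*, a phosphofructokinase, was at 93.1, 100.4 and 99.1 CPM in HP1βKO and 297, 314 and 327 CPM in HP1β/αDKO (log2 fold change 1.68, adjusted p = 3.74e-09), and *Ldhb*, a lactate dehydrogenase subunit, at 152, 132 and 142 CPM in HP1βKO and 352, 366 and 363 CPM in HP1β/αDKO (1.34, adjusted p = 1.78e-08). Both were among the 5 most abundant genes called higher, and neither overlapped between the groups.

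When all 4 genotypes were scaled together, HP1βKO had the lowest mean for each called member. *Egln3* averaged 54.3 ± 0.632 CPM in WT (set A), 32.3 ± 2.55 in HP1αKO, 8.02 ± 0.719 in HP1βKO and 56.2 ± 0.874 in HP1β/αDKO (SD, n = 3). *Bnip3* averaged 101, 85.2, 27.8 and 140.0 CPM in the same order, and *Vegfa* 39.8, 22.6, 13.3 and 56.5 CPM. HP1βKO was the lowest and HP1β/αDKO the highest of the 4 means for all 8 called members, with a median log2 ratio to WT of -1.45 in HP1βKO and 0.37 in HP1β/αDKO. The calls compare these 2 groups, which favours them as the extremes. Of all 643 genes called higher, HP1βKO was the lowest for 83.5% and HP1β/αDKO the highest for 68.9%. Over the 27 tested members HP1βKO was lowest for 15 and HP1β/αDKO highest for 19, and these shares over all genes tested were not counted. The 2 sets of *wild-type* libraries differed at several of these genes, *Egln3* averaging 81.9 CPM and *Bnip3* 156 CPM in set B (scaled over 15 libraries), above HP1β/αDKO in both cases.

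**Figure D3:**
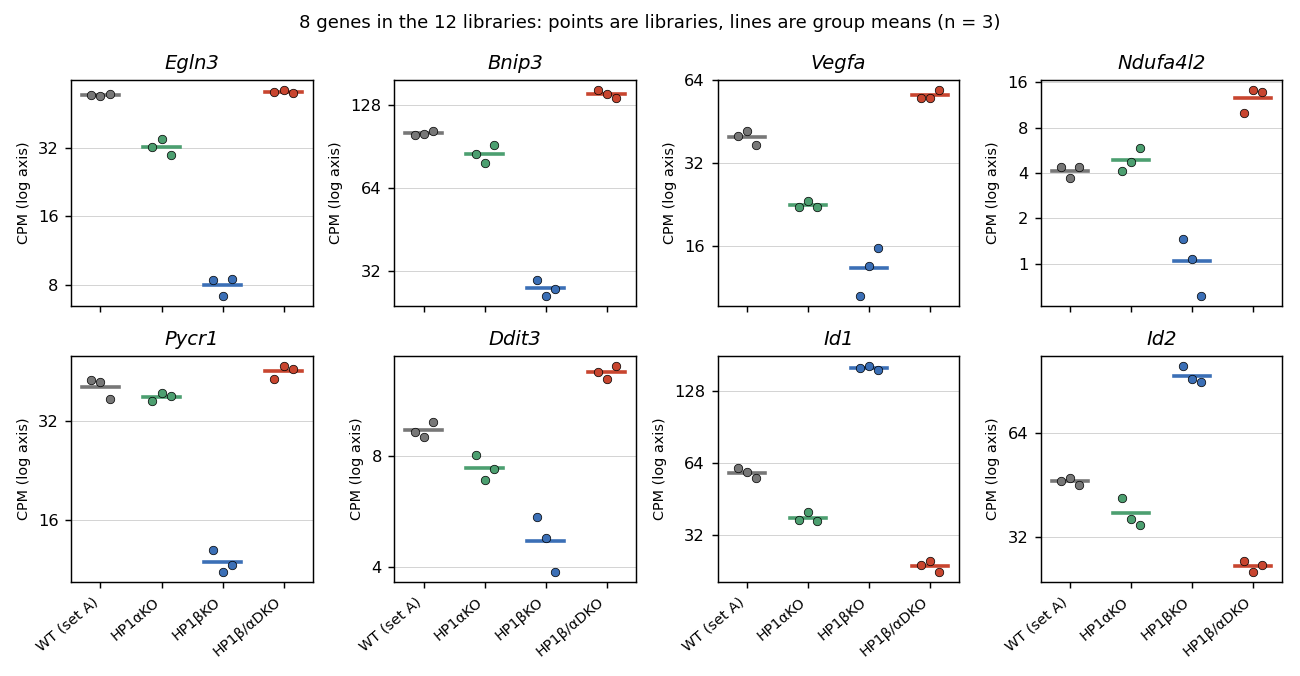
CPM on a log axis (TMM over 12 libraries) of 8 genes in WT (set A), HP1αKO, HP1βKO and HP1β/αDKO; points are libraries and lines group means (n = 3). For *Egln3*, *Bnip3*, *Vegfa*, *Ndufa4l2*, *Pycr1* and *Ddit3* the HP1βKO libraries are the lowest of the 12, and for *Id1* and *Id2* they are the highest.

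Genes of the integrated stress response were called higher as well. In this response a stalled translation start favours the transcription factors ATF4 and CHOP, which raise amino acid synthesis, transport and redox genes. The list was drawn up after the values of these genes had been seen and is given as a description: of 27 tested members 10 were called higher and 1 lower (37.0% and 3.7%, beside 4.1% and 2.64% of all genes), with a median log2 fold change of 0.47. *Pycr1*, which completes proline synthesis, was at 12.9, 11.1 and 11.6 CPM in HP1βKO and 42.6, 46.4 and 45.4 CPM in HP1β/αDKO, a log2 fold change of 1.92 (SE 0.0795, adjusted p = 2.31e-08). *Chac1*, which degrades glutathione, was at 5.32, 5.95 and 5.64 CPM in HP1βKO and 16.5, 19.3 and 17.7 CPM in HP1β/αDKO and had a log2 fold change of 1.66 (adjusted p = 5.39e-07). *Ddit3*, which encodes CHOP, was at 5.42, 4.76 and 3.85 CPM in HP1βKO and 13.4, 12.9 and 13.9 CPM in HP1β/αDKO and had a log2 fold change of 1.52 (adjusted p = 5.35e-06). No library of one group entered the range of the other for these 3 genes, as for 1041 of all 1058 called genes.

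*Asns*, asparagine synthetase, was the most abundant member called, at 160.0, 148 and 146 CPM in HP1βKO and 318, 319 and 311 CPM in HP1β/αDKO (log2 fold change 1.07, adjusted p = 4.15e-08). *Ddit4*, an inhibitor of mTORC1 that responds to low oxygen and to ATF4, was at 68.3, 60.1 and 64.3 CPM in HP1βKO and 172, 176 and 176 CPM in HP1β/αDKO (1.44, adjusted p = 1.35e-08). The remaining calls were *Vldlr* (1.78), *Nupr1* (1.66), *Cebpb* (1.6), *Stc2* (1.5) and *Gpt2* (1.09). *Cth*, which makes cysteine from cystathionine, went the other way, at 142, 136 and 128 CPM in HP1βKO and 61.98, 57.9 and 57.6 CPM in HP1β/αDKO (-1.2), and it also fell in the *wild-type* background (-1.8). *Atf4* itself had a log2 fold change of 0.26. HP1βKO was the lowest of the 4 group means for 10 of the 11 called members and for 18 of the 27 tested. It was the lowest for 83.5% of all genes called higher, since the calls favour this group as an extreme. Its share over all genes tested was not counted. The median log2 ratio of HP1β/αDKO to WT over the tested members was -0.07. *Pycr1*, for example, averaged 40.5 CPM in WT, 37.8 in HP1αKO, 11.9 in HP1βKO and 45.2 in HP1β/αDKO.

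Among the falls were the inhibitors of differentiation. ID proteins dimerize with basic helix-loop-helix factors and keep them off DNA, and in ESCs grown in serum their genes respond to BMP through SMAD. *Id1* was at 159, 161 and 156 CPM in HP1βKO and 23.8, 24.8 and 22.4 CPM in HP1β/αDKO, a log2 fold change of -2.74 (SE 0.0572, adjusted p = 2.07e-10). *Id2* was at 98.6, 90.4 and 89.1 CPM in HP1βKO and 27.1, 25.2 and 26.3 CPM in HP1β/αDKO (-1.82, adjusted p = 6.23e-09), and *Id3* at 50.2, 48.6 and 49.1 CPM in HP1βKO and 21.3, 25.1 and 21.3 CPM in HP1β/αDKO (-1.12, adjusted p = 6.14e-07). All 3 separated the groups without overlap, as did 1041 of all 1058 called genes. *Id4*, the least expressed, had a log2 fold change of -0.34 that did not pass the test (adjusted p = 0.0523). In a list of BMP-SMAD genes and ID factors, also drawn up after the values were seen, 1 of 25 tested members was called higher and 4 lower, and the median was -0.17. The fourth lower member was the BMP antagonist *Grem1*, with 0 counts in 2 of 3 HP1β/αDKO libraries. The member called higher was the ligand *Bmp7* (1.02), which had 0.92, 0.91 and 0.995 without HP1βKO replicate 1, HP1βKO replicate 2 and HP1β/αDKO replicate 2, while the ligand *Bmp4* had a log2 fold change of -0.86.

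*Id1* averaged 58.4 CPM in WT, 38.00 in HP1αKO, 159.6 in HP1βKO and 23.9 in HP1β/αDKO, so that HP1βKO was the highest and HP1β/αDKO the lowest group. For *Id3* the order differed, with 9.44 CPM in WT, 27.4 in HP1αKO, 49.6 in HP1βKO and 22.7 in HP1β/αDKO. *Id3* was thus higher in HP1αKO than in WT (1.53) and lower in HP1β/αDKO than in HP1βKO. The difference between these 2 contrasts was -2.66 by edgeR (SE 0.109, adjusted p = 3.95e-12). As stated above, a difference between clones and the effect of the genotype cannot be told apart.

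Signalling genes upstream of the pluripotency network moved in both directions. In the list of Nodal, BMP and Wnt targets 1 of 18 tested members was called higher, the Wnt feedback ligase *Rnf43* (1.09). The 4 called lower were *Id1*, *Id2*, *Id3* and *Nodal*, and the median was 0.004. These calls were 5.6% and 22.2% of the members, beside 4.1% and 2.64% of all genes. *Nodal*, the TGFβ ligand, was at 114, 103 and 103 CPM in HP1βKO and 46.4, 48.6 and 50.4 CPM in HP1β/αDKO (-1.13, adjusted p = 1.15e-07). A list of FGF-ERK genes was drawn up after the values were seen. Of 24 tested members 4 were called higher and 2 lower (16.7% and 8.3%, beside 4.1% and 2.64% of all genes). By the adjusted p alone the balance was the other way, with 6 higher and 14 lower. Of all 15694 genes, 3658 were higher and 3311 lower by that rule. The list had a median of -0.24. The feedback inhibitor *Spry4* was at 218, 218 and 225 CPM in HP1βKO and 81.4, 82.7 and 88.3 CPM in HP1β/αDKO (-1.39, adjusted p = 7.9e-09), and *Myc*, an ERK and LIF target, at 103, 101 and 98.2 CPM in HP1βKO and 32.8, 33.6 and 31.1 CPM in HP1β/αDKO (-1.63, adjusted p = 6.23e-09). Both were lower in every HP1β/αDKO library. *Fgf8* (2.73), *Fgf5* (1.83, adjusted p = 0.00477) and *Spry1* (1.05) were called higher, *Spry1* not so without HP1βKO replicate 2 (0.93) or HP1β/αDKO replicate 2 (0.97). *Etv4*, a transcription factor downstream of ERK, had a log2 fold change of -0.97.

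Few factors of the pluripotency network were called. Of 27 tested members 2 were called higher (7.4%, beside 4.1% of all genes), and the list's median was 0.16. They were *Klf4* and *Tbx3*, both factors of the naive state. *Klf4* was at 17.6, 20.02 and 19.7 CPM in HP1βKO and 72.8, 71.9 and 78.1 CPM in HP1β/αDKO (1.96, adjusted p = 7.9e-09), and *Tbx3* at 12.1, 9.35 and 8.27 CPM in HP1βKO and 35.2, 34.3 and 36.4 CPM in HP1β/αDKO (1.83, adjusted p = 4.35e-07). Every HP1β/αDKO library was above every HP1βKO library. *Klf4* also rose when HP1α was lost from *wild-type* cells (1.32), with group means of 16.9 CPM in WT, 42.6 in HP1αKO, 19.2 in HP1βKO and 74.9 in HP1β/αDKO, and the difference between backgrounds (0.62, adjusted p = 2.03e-05) did not reach the fold threshold. *Pou5f1*, which encodes OCT4, was at 1068, 995 and 985 CPM in HP1βKO and 820.3, 843 and 831 CPM in HP1β/αDKO, a log2 fold change of -0.29. *Esrrb*, another core factor, had a log2 fold change of 0.33.

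Markers of the formative and primed states were called in both directions, with 3 of 19 tested members lower and 1 higher. These were 15.8% and 5.3%, beside 2.64% and 4.1% of all genes, and the median was -0.33. By the adjusted p alone 10 were lower and 5 higher. The members called lower were *Spry4*, *Foxd3* (-1.11), a repressor that guides exit from naive pluripotency, and the activin antagonist *Fst* (-1.1). The one called higher was *Fgf5*. *Foxd3* was at 40.5, 36.9 and 36.5 CPM in HP1βKO and 17.5, 18.1 and 17.2 CPM in HP1β/αDKO, without overlap. Of mesoderm and ectoderm genes 4 of 18 were lower and 2 higher (22.2% and 11.1%, beside 2.64% and 4.1% of all genes). *Neurod1*, a neurogenic basic helix-loop-helix factor, was at 15.7, 16.1 and 17.3 CPM in HP1βKO and 4.08, 4.502 and 5.45 CPM in HP1β/αDKO (-1.8), and *Pax6*, an eye and forebrain factor, at 18.1, 15.96 and 13.2 CPM in HP1βKO and 5.19, 5.93 and 6.24 CPM in HP1β/αDKO (-1.44). *Pax6* rose on HP1α loss in *wild-type* cells (1.07), a difference of -2.52. The mesoderm factor *T* was low, at 1.09, 1.24 and 1.27 CPM in HP1βKO and 3.98, 3.81 and 5.87 CPM in HP1β/αDKO (1.92, adjusted p = 0.000106). The sum of neural-like markers given above was lower as well, and its part in these falls was not tested.

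Endoderm genes had a median of -0.51, with 1 of 13 called, the laminin subunit *Lama1* at 162, 165 and 155 CPM in HP1βKO and 72.5, 78.7 and 80.6 CPM in HP1β/αDKO (-1.05). By the adjusted p alone 8 of the 13 were lower and 0 higher, beside 3311 and 3658 of all 15694 genes. Of trophectoderm genes 1 of 14 was higher and 2 lower (7.1% and 14.3%, beside 4.1% and 2.64% of all genes, with a median of 0.078). The higher one, *Tfap2c*, encodes an AP-2 factor of trophoblast, germ cells and naive ESCs and was at 69.3, 72.6 and 67.5 CPM in HP1βKO and 143, 156 and 152 CPM in HP1β/αDKO (1.11); it rose in the *wild-type* background too (1.7). Of 28 genes of the 2-cell-like state only 1 was high enough to be tested.

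Germline genes, which heterochromatin and DNA methylation keep silent in somatic cells, fell more often than they rose. Of 30 tested members 9 were called lower (30.0%, beside 2.64% of all genes) and 1 higher, and the median log2 fold change was -0.62. *Piwil2*, a PIWI protein that loads piRNAs, was at 31.8, 33.7 and 31.8 CPM in HP1βKO and 13.4, 13.3 and 13.6 CPM in HP1β/αDKO (-1.27, adjusted p = 2.08e-07). *Ddx4*, the germ cell helicase VASA, was at 20.7, 23.8 and 23.7 CPM in HP1βKO and 12.95, 9.45 and 9.88 CPM in HP1β/αDKO (-1.09, adjusted p = 2.83e-05), its call being lost at the fold threshold without HP1β/αDKO replicate 2. Neither overlapped. The meiotic genes *Syce1* (-1.23) and *Sycp1* (-1.79) of the synaptonemal complex and the Tudor protein *Tdrd1* (-1.15) fell too, and *Slc25a31*, *Rhox13* and *Tex101* were at 1.01 CPM or less in all 6 libraries. *Taf7l* was called (-1.34, adjusted p = 0.0243) but not by DESeq2 (adjusted p = 0.0785), and its call was lost without HP1βKO replicate 1 or 2 or HP1β/αDKO replicate 2 or 3, with adjusted p up to 0.103. *Stra8*, the retinoic acid target that opens meiosis, was the member called higher (1.05). HP1β/αDKO was the lowest of the 4 group means for 17 of the 30 tested members and 9 of the 10 called. It was the lowest for 74.9% of all genes called lower, since the calls favour this group as an extreme. Its share over all genes tested was not counted. In the *wild-type* background 3 members rose and 1 fell, with a median of -0.36.

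Clustered protocadherins, cell surface proteins whose promoters are chosen singly in each neuron, were called lower at 5 of 24 tested members (20.8%, beside 2.64% of all genes, with a median of -0.27); 57 were listed, and the rest were too low to be tested. This count fell to 3 without HP1βKO replicate 1 or without HP1β/αDKO replicate 3. In the *wild-type* background 4 of the 24 were called lower and 0 higher on HP1α loss, with a median of -0.42. *Pcdhb17*, the strongest, was at 1.39, 0.882 and 1.36 CPM in HP1βKO and 0.151, 0.123 and 0.277 CPM in HP1β/αDKO (-2.69). These levels are low, and the genes share sequence, so reads of one member could have been assigned to another.

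Imprinted genes were called higher at 2 of 34 tested members (5.9%, beside 4.1% of all genes, with a median of -0.11). One was *H19*, a maternally expressed RNA, at 8.55, 8.38 and 6.39 CPM in HP1βKO and 26.7, 27.99 and 28.2 CPM in HP1β/αDKO (1.83, adjusted p = 2.63e-07). Every HP1β/αDKO library was above every HP1βKO library. The other, *Sgce*, fell under the fold threshold without HP1βKO replicate 1 (0.95) and without HP1β/αDKO replicate 2 (0.99). The neighbour of *H19*, *Igf2*, had a log2 fold change of -0.12, and *Cdkn1c* of -0.97. *H19* rose when HP1α was lost in the *wild-type* background as well (2.43), with 12-library means of 0.337 CPM in WT, 1.85 in HP1αKO, 7.82 in HP1βKO and 27.9 in HP1β/αDKO, and the difference between the backgrounds (-0.61, adjusted p = 0.109) did not pass.

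**Figure D4:**
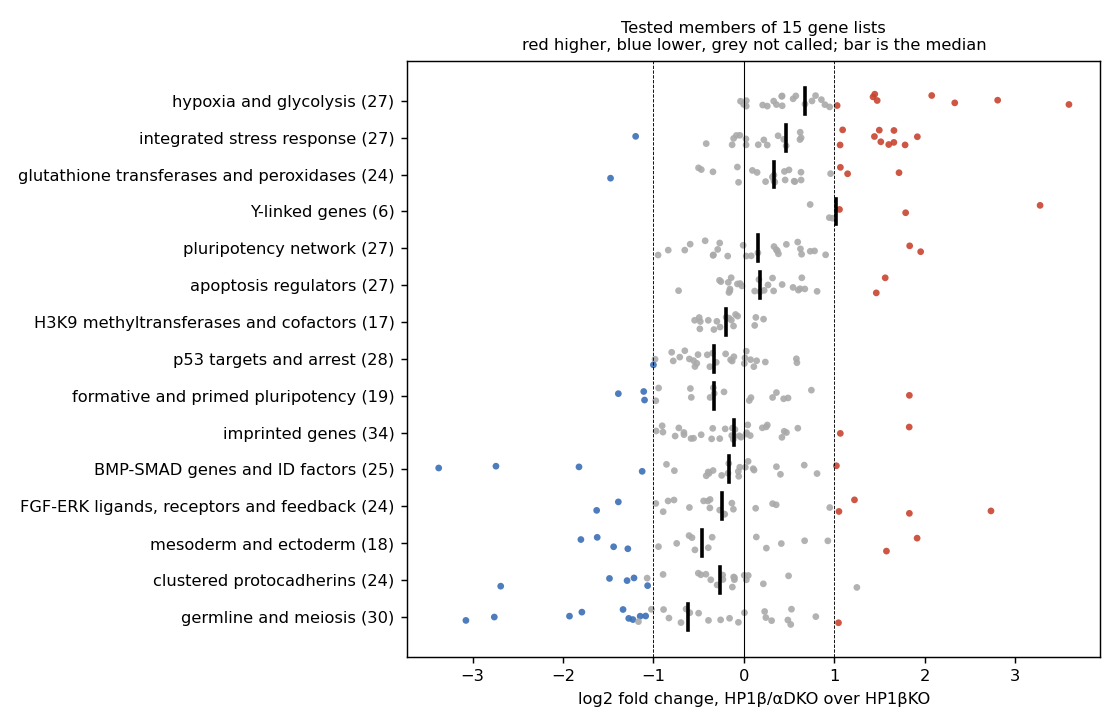
Log2 fold change of HP1β/αDKO over HP1βKO for the tested members of 15 gene lists, the number of members in brackets; each point is a gene, red called higher, blue called lower and grey not called, and the black bar is the list median. Hypoxia and glycolysis has its median at 0.68 and germline and meiosis at -0.62; integrated stress response, BMP-SMAD, FGF-ERK and Y-linked lists were drawn up after the values were seen.

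Few genes of the machinery that HP1 works with were called. Of the 17 tested H3K9 methyltransferases and cofactors, 19 HP1 binding partners, 15 DNA methylation genes and 13 members of the PRC1.6 complex, 0 passed edgeR's test and the fold threshold, and DESeq2 called 0 as well. At an unadjusted p under 0.05, 10 of the H3K9 group were lower and 1 higher, 6 and 3 of the binding partners, 8 and 4 of the DNA methylation genes, and 6 and 1 of PRC1.6. The share of all genes at that unadjusted threshold was not counted. By the adjusted p alone, 9 of the H3K9 group were lower and 0 higher, and 5 and 3 of the binding partners. For DNA methylation genes these counts were 7 and 3, and for PRC1.6 4 and 0. Of all 15694 genes, 3311 were lower and 3658 higher by that rule. The medians of the 4 lists lay between -0.2 and -0.064. *Trim28*, the KAP1 corepressor that joins zinc finger proteins to HP1, was at 2104, 1972 and 1928 CPM in HP1βKO and 1313, 1390 and 1413 CPM in HP1β/αDKO, a log2 fold change of -0.54 (adjusted p = 2e-06). It was lower in every HP1β/αDKO library but short of the fold threshold. Of 10 H3K9 demethylases *Kdm7a* was called higher (1.05); without HP1βKO replicate 1 its log2 fold change was 0.87 and without HP1β/αDKO replicate 1 it was 0.98, both under the threshold. Of 12 PRC2 genes *Epop*, a cofactor that limits the complex, was called lower, at 764, 685 and 685 CPM in HP1βKO and 356, 313 and 332 CPM in HP1β/αDKO (-1.09).

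Calls in other lists were scattered, to be read beside 4.1% higher and 2.64% lower of all genes. Of zinc finger (Zfp) genes, many of which bind KAP1, 7 of 376 were called higher (1.9%) and 5 lower (1.3%), with a median of -0.1. *Zfp516* (1.42) had the largest rise, and *Zfp57*, which guards imprints, was at -0.63. By the adjusted p alone 98 of the 376 were lower and 57 higher. Apoptosis regulators had 2 of 27 higher, the BH3-only killers *Bik* (1.56) and *Bmf* (1.47), the latter at 12.1, 11.7 and 12.4 CPM in HP1βKO and 30.7, 34.4 and 34.9 CPM in HP1β/αDKO. Among p53 targets 1 of 28 was called lower (median -0.33), and *Trp53* itself had a log2 fold change of -0.52. By the adjusted p alone 15 of the 28 were lower and 2 higher, beside 3311 and 3658 of all 15694 genes. Glutathione transferases and peroxidases had 3 higher, 1 lower and a median of 0.34 over 24. *Gpx1*, the cytosolic glutathione peroxidase, was at 330.1, 308 and 295 CPM in HP1βKO and 105, 115 and 115 CPM in HP1β/αDKO (-1.47), against 0.96 for *Gpx4*, which protects membrane lipids, and 1.72 for *Gstm3*.

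Adhesion and matrix genes gave scattered calls, to be read beside 4.1% higher and 2.64% lower of all genes. Of 24 integrins and laminins 2 were lower (8.3%). Cadherins and junction genes had 2 higher (8.7%) and 1 lower (4.3%) of 23. Axon guidance genes had 4 higher (6.8%) and 3 lower (5.1%) of 59, and collagens 2 (6.1%) and 2 (6.1%) of 33. *Cldn7*, a tight junction claudin, was at 25.4, 24.1 and 22.9 CPM in HP1βKO and 53.9, 52.2 and 51.4 CPM in HP1β/αDKO (1.12), and the classical cadherin *Cdh9* fell by 2.52 on the log2 scale. Of interferon genes 1 of 18 was higher, and of replication-dependent histones 1 and 1 of 4. Non-polyadenylated RNAs, read as a sign of library chemistry, had 0 of 6 members higher and 0 lower at an unadjusted p under 0.05, with 0 called by edgeR and 0 by DESeq2.

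Other genes with the largest changes had varied roles. They were named among genes that reached 5 CPM in the higher group and whose groups did not overlap. *Zc3h6*, a CCCH zinc finger protein, had the largest rise of the named genes, at 0.547, 0.397 and 0.658 CPM in HP1βKO and 7.56, 6.96 and 6.33 CPM in HP1β/αDKO (3.69, adjusted p = 5.01e-07). *Dcdc2a*, a doublecortin-domain protein of cilia and neurons, was at 2.63, 3.66 and 2.68 CPM in HP1βKO and 18.2, 19.6 and 18.5 CPM in HP1β/αDKO (2.64). The dynein *Dnah12* (3.15), the adhesion receptor *Adgrg6* (2.57), the coatomer subunit *Copz2* (2.5), the CaMKII inhibitor *Camk2n1* (2.14) and the amine oxidase *Aoc3* (2.09) rose from levels of 2.49 CPM or less in every HP1βKO library.

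Among the falls, *Pla2g7*, a secreted phospholipase, was at 7.26, 7.85 and 6.76 CPM in HP1βKO and 0.907, 0.573 and 0.6004 CPM in HP1β/αDKO (-3.4, adjusted p = 6.12e-07). The neurotrophin receptor *Ngfr* was at 167, 159.8 and 147 CPM in HP1βKO and 34.5, 35.4 and 38.3 CPM in HP1β/αDKO (-2.13, adjusted p = 3.73e-09), and *Mcc*, a gene named for colorectal cancer mutations, at 137, 164 and 161 CPM in HP1βKO and 37.04, 32.1 and 37.4 CPM in HP1β/αDKO (-2.12, adjusted p = 1.35e-08). Each was lower in every HP1β/αDKO library, which the rule for naming them required. *Ngfr* also fell on HP1α loss in *wild-type* cells (-1.2), and *Mcc* was not called there (0.19). *Hes3* (-2.47), a Notch-related repressor, the melanocortin receptor *Mc5r* (-2.52), *Dmkn* (-2.35), the surface protein *Cd34* (-1.97) and *Tchh* (-1.96) were also among the largest falls. At the abundant end, *Mat2a*, which makes S-adenosylmethionine, the methyl donor of histone and DNA methylation, was at 664, 659 and 665 CPM in HP1βKO and 317, 315 and 315 CPM in HP1β/αDKO (-1.07, adjusted p = 6.23e-09). Its 12-library means were 325 CPM in WT, 488 in HP1αKO, 667 in HP1βKO and 318 in HP1β/αDKO, so that it was higher in each single knockout than in WT or the double knockout. *Ccnd1*, cyclin D1, was at 242, 231 and 222 CPM in HP1βKO and 110.0, 121 and 109 CPM in HP1β/αDKO (-1.03), and without HP1βKO replicate 1 its log2 fold change was -0.996, just short of the threshold.

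Gene models without an assigned function moved by similar amounts. *Gm15494* (2.29), *2410003I16Rik* (1.79) and *Gm10240* (1.91) had the largest rises among gene models that reached 5 CPM in the higher group without overlap between the groups, *Gm10240* with an adjusted p of 0.0458 that DESeq2 put at 0.406 and that was 0.105 without HP1βKO replicate 2 and 0.0746 to 0.191 without single HP1β/αDKO libraries. The largest falls by the same rule were *Gm48551* (-3.31), *Gm14565* (-2.81) and *4930586N03Rik* (-2.23). *Gm14565* was at 28.7, 38.8 and 39.9 CPM in HP1βKO and 5.795, 4.58 and 5.03 CPM in HP1β/αDKO.

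By chromosome, medians of the log2 fold change lay between -0.027 and 0.066 except on chromosomes 16, Y and M. Of 14 tested genes of chromosome Y 4 were called higher (28.6%, beside 4.1% of all genes) and 1 lower (7.14%, beside 2.64%), with a median of 0.58. A list of Y-linked genes, drawn up after the values were seen, held 6 of them. The call outside it that was higher was the gene model *Gm2098* (1.12) and the one that was lower *Gm28595* (-1.12), both named after their values were seen. *Gm2098* was just under the fold threshold without HP1βKO replicate 2 (0.9975). *Zfy1*, a zinc finger transcription factor, was at 0.895, 2.21 and 1.74 CPM in HP1βKO and 15.8, 14.5 and 17.3 CPM in HP1β/αDKO (3.28, adjusted p = 5.05e-07), and the H3K4 demethylase *Kdm5d* at 6.81, 6.88 and 6.58 CPM in HP1βKO and 21.7, 23.6 and 24.8 CPM in HP1β/αDKO (1.79, adjusted p = 1.13e-07). *Eif2s3y* (1.06, or 0.96 without HP1βKO replicate 1) was called as well, while *Uty* (0.98), *Uba1y* (0.95) and *Ddx3y* (0.73) passed the adjusted p alone. The 6 list members were lowest in HP1βKO among the 4 group means. That group was the lowest for 83.5% of all genes called higher, since the calls favour it as an extreme. The share over all genes tested was not counted. *Kdm5d*, for instance, averaged 22.3 CPM in WT, 18.4 in HP1αKO, 6.798 in HP1βKO and 23.6 in HP1β/αDKO. The 3 calls of the list became 2 without HP1βKO replicate 1 and 5 without HP1βKO replicate 3.

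Mitochondrially encoded genes had a median of 0.17 over 12 listed members, and chromosome M as a whole 0.43 over 15 genes. The call, *mt-Nd3*, a subunit of respiratory complex I, rested on spread-out libraries, at 1.19, 6.26 and 3.52 CPM in HP1βKO and 6.65, 13.6 and 18.3 CPM in HP1β/αDKO. On chromosome 16, 450 tested genes had a median of -0.12, with 1.56% called higher and 3.56% lower. In the *wild-type* background the same chromosome had a median of -0.49.

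Neighbouring tested genes called the same way made 58 pairs higher and 23 lower, and 8 runs of 3 or more. In 1 of these runs, on chromosome X, *Gpc3* (1.36), a glypican of the cell surface, *Kis2* (2.73) and *Ccdc160* (1.75) were called higher. Protein-coding genes made up 88.6% of tested genes, 83.8% of those higher and 81.7% of those lower. Promoters of called genes held fewer CpGs, with a median observed over expected ratio of 0.606 for higher and 0.56 for lower genes beside 0.753 for all tested. Called genes were also low, with a median level of 2.56 CPM for higher and 1.77 CPM for lower genes beside 17.6 CPM.

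To ask whether HP1α loss does the same where HP1β is present, the 3 HP1αKO libraries were set against the 3 WT libraries of set A. These share no library with the comparison above. There, 247 of 15841 genes were called higher (1.56%) and 525 lower (3.31%), so falls led where rises had led without HP1β. Across the 15315 genes tested in both, the log2 fold changes had a Pearson r of 0.08 and a Spearman rho of -0.011, genes not being independent replicates. Of 608 genes called higher without HP1β and tested in both, 44 were also called higher in the *wild-type* background and 32 lower, and of 365 called lower, 62 were also lower and 18 higher. The shared rises included *H19* and *Klf4* and the shared falls *Cbx5*, *Cth* and *Ngfr*.

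The difference between the 2 effects was itself tested in 1 model of 12 libraries. Of 16512 genes 1119 had a positive call (6.78%), meaning a more positive effect without HP1β, and 454 a negative call (2.75%). Of the 1058 genes called without HP1β 595 had a call of the difference, among them 430 higher genes with a positive and 160 lower genes with a negative one. The fold change that chose these genes is part of the difference, which favours the matching sign, so these counts are a description. *Egln3* had a difference of 3.56 (SE 0.0973, adjusted p = 1.92e-14), a rise without HP1β beside -0.76 with it. *Bnip3* (2.58), *Vegfa* (2.9), *Ndufa4l2* (3.36) and *Pycr1* (2.02) had positive calls of the same kind. *Id1* (-2.12), *Mcc* (-2.32) and *Mat2a* (-1.65) had negative ones. In the hypoxia and glycolysis list 2 of 27 members fell in the *wild-type* background and the median was 0.03. With the WT libraries of set B in place of set A the total of 1573 calls became 2702.

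**Figure D5:**
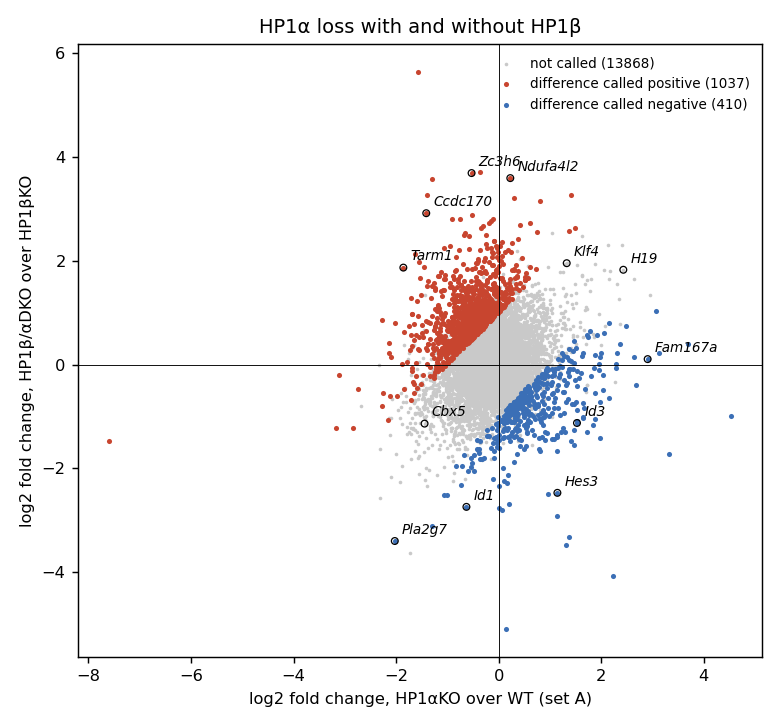
Log2 fold change on HP1α loss without HP1β (HP1β/αDKO over HP1βKO, vertical) against that with HP1β (HP1αKO over WT set A, horizontal), 1 point per gene tested in both (15315); red and blue points are genes whose difference was called positive (1037) or negative (410). *Klf4*, *H19* and *Cbx5* moved the same way in both, while *Zc3h6*, *Ndufa4l2* and *Id3* lie off the diagonal.

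The called genes were also placed by the order of the 4 group means. Of the 643 genes called higher, HP1βKO was the lowest of the 4 groups for 537 (83.5%) and HP1β/αDKO the highest for 443 (68.9%), and for 430 (66.9%) the WT mean was nearer to HP1β/αDKO than to HP1βKO on the log scale. Of the 415 called lower, HP1βKO was the highest for 276 (66.5%) and HP1β/αDKO the lowest for 311 (74.9%), and WT was nearer to HP1β/αDKO for 172 (41.4%). The calls come from HP1βKO and HP1β/αDKO, which favours these 2 groups as the extremes, so the shares are a description. *Egln3* and *Kdm5d* belong to the rises that end near WT, whereas *Tbx3* rose past it, averaging 4.99 CPM in WT, 9.98 in HP1βKO and 35.6 in HP1β/αDKO. Of the falls, *Myc* averaged 52.6, 101 and 32.8 CPM in the same order, and *Piwil2* 27.8, 32.7 and 13.5 CPM.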

How the data were processed

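RNA was measured by paired-end sequencing, from a stranded total RNA kit per the study's methods and a TruSeq RNA kit per the labels. Per the submitters' notes, reads were aligned with TopHat2 (2.1.1) to GRCm38.p5 and quantified with RSEM, and the study's methods name DESeq2 for its comparisons. The values used are the deposited RSEM estimated counts. Rounding to whole numbers changed the 11.9% that were fractional. The authors' own fold changes and p-values were not used, nor were 27 per-sample columns, which include the deposited TPM columns. Of 55487 genes 55227 matched GENCODE M21. Genes passing filterByExpr (minimum count 10) were TMM-scaled and tested with the quasi-likelihood test of edgeR (4.0.16, R 4.3.3) over 6 libraries, Benjamini-Hochberg adjusted over all genes, and the difference between backgrounds was an interaction over 12 libraries. The scripts were tested on simulated counts. With 3 libraries against 3, an exact permutation test cannot go below p = 0.1. Members and lists were chosen with earlier results of these data known, and list members outside the naming rule (targets, the 12 largest rises and falls of at least 5 CPM, 3 gene models and the 5 most abundant genes each way, up to 6 called and 3 other members a list, 5 interaction genes each way), together with chromosome runs, were chosen after their values were seen; 1 gene of this rule is not reported here. The largest rises and falls of this rule, gene models included, also had to show no overlap between the groups. Alternatives were another scaling, DESeq2 (1.42.0), other filters, a joint fit, a replicate block, leaving out each library, WT set B and the adjusted p alone. Same-numbered replicates did not deviate together (r between -0.196 and -0.086). Reference sequences are from RefSeq.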

Additional observations from a re-analysis of the deposited data

Results flagged for a closer look

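At 10 genes the effect of HP1α loss differed between cells without and with HP1β in the interaction test of edgeR. Each value is the log2 fold change of HP1β/αDKO over HP1βKO minus that of HP1αKO over WT (set A), and all 10 kept their sign and their call under every alternative run for the interaction. The positive differences were 4.33 for *Ccdc170* (adjusted p = 1.05e-08), 4.22 for *Zc3h6*, 3.73 for *Tarm1* (adjusted p = 4.07e-05), 3.56 for *Egln3* and 3.36 for *Ndufa4l2*. *Ccdc170* had log2 fold changes of 2.92 without and -1.41 with HP1β, and averaged 6.94 CPM in WT, 2.62 in HP1αKO, 0.347 in HP1βKO and 2.66 in HP1β/αDKO. *Tarm1* was at most 0.766 CPM on average in both groups that lack HP1β, and its own rise there was lost under DESeq2, the replicate block and without HP1βKO replicate 2 or 3 or HP1β/αDKO replicate 2 or 3.

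The negative differences were -3.62 for *Hes3*, -2.81 for *Fam167a* (adjusted p = 3.45e-07), -2.79 for *Notumos*, -2.66 for *Id3* and -2.64 for *Neurog1*. For *Fam167a* the difference came with a rise of 2.9 in the *wild-type* background and a log2 fold change of 0.11 without HP1β that did not pass. *Notumos* likewise rose by 2.14 with HP1β and had -0.64 without it. *Neurog1*, a neurogenic factor, rose by 1.53 with HP1β and fell by 1.09 on the log2 scale without it, the fall being under the fold threshold without HP1βKO replicate 3 or HP1β/αDKO replicate 2.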

How the results depend on the processing

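The counts of 643 genes called higher and 415 called lower became 3658 and 3311 by the adjusted p alone, and 258 were lower when 10 counts were asked of every library, a filter that leaves fewer low genes to test. The interaction total of 1573 became 7432 by the adjusted p alone (3868 positive, 3564 negative) and 2702 with WT set B (1031 negative), the cause of which was not tested. Leaving out single libraries gave 585 to 704 genes higher, 374 to 449 lower, 1474 to 1565 interactions, 3 to 5 protocadherins and 2 to 5 Y-linked genes, 704 and 449 both without HP1βKO replicate 1. With the replicate number as a block, 603 genes were higher, 378 lower and 1526 had an interaction, and the pairing is not one of the design. DESeq2 gave 569 and 383, and RLE scaling 621 and 433. In the *wild-type* background leave-one-out counts were 223 to 256 higher and 479 to 548 lower, alternatives chosen after seeing the data. Of 100 called genes named here 13 lost their call under at least 1 alternative (35 of 1185 values), and 0 changed sign. Low genes carry the least precision: 639 of 1058 called genes were under 5 CPM.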
